A study of Mus musculus with 15 samples.

Results

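Interferon-stimulated genes are the genes that cells switch on when interferon binds its receptors, and 41 of them were followed across 15 RNA-seq libraries of mouse endometrial epithelial organoids. The members were fixed by gene symbol: transcription factors of the response, sensors of viral nucleic acid, antiviral effectors, the ISG15 modification system, interferon-inducible GTPases, ADP-ribosylation enzymes, antigen-processing genes and 4 others. All 41 were among the 16729 genes of the table, and all 41 passed the filter on low values (a mean normalized count of at least 10) in each of the 4 comparisons below. The rule itself uses symbols and no measured value, but the set was proposed with earlier results of these data known.

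Organoids were grown in Matrigel from uterine epithelium of mice carrying Smad2flox/flox and Smad3flox/flox. Without Cre these mice were the controls, and with Ltfcre/+ they were the Smad2/3 cKO, in which the lactoferrin promoter drives Cre in the uterine epithelium. Both genotypes were cultured with DMSO vehicle or with A83-01, an inhibitor of ALK4, ALK5 and ALK7, the activin, TGFβ and nodal type I receptors that activate SMAD2 and SMAD3 by phosphorylation. There were 3 libraries of control + vehicle and 4 each of control + A83-01, Smad2/3 cKO + vehicle and Smad2/3 cKO + A83-01, and the questions were what the inhibitor and the deletion each did to the epithelial transcriptome. Libraries also carry a label, which is FF-V367, FF-V368 and FF-V395 in control + vehicle, FF-A367, FF-A368, FF-A395 and FF-A396 in control + A83-01, LTF-V367, LTF-V369, LTF-V393 and LTF-V394 in Smad2/3 cKO + vehicle, and LTF-A369, LTF-A371, LTF-A372 and LTF-A373 in Smad2/3 cKO + A83-01. The numbers fall in a lower and a higher series, and the lowest occurs in both genotypes, so a number alone does not name an animal. Control replicates 1 to 3 carry the same label numbers with vehicle and with A83-01. The donors were adult mice by the study's general statement on its animals, and the labels give no age for a sample. By the methods, estradiol was given at weaning to switch on the Ltf-driven Cre.

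Type I interferons signal through IFNAR1 and IFNAR2 and the kinases JAK1 and TYK2. The signal reaches ISGF3, a complex that includes STAT2 and IRF9 and binds the interferon-stimulated response element (ISRE), whereas interferon gamma acts through the gamma-activated sequence (GAS). The uterine epithelium is exposed to interferons in infection and in pregnancy, and it makes interferon epsilon of its own.

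Values are normalized counts, that is, Salmon estimated counts divided by a size factor per library, given in the order of replicates 1 to 3 or 1 to 4. They sum to between 20241771 and 24423127 per library. The smallest step between values gave a rough depth of 18.4 to 43.2 M reads. Smad2/3 cKO + A83-01 replicate 3 was at 43.2 M and every other library at 23.3 M or less. At most 22.6% of low values were whole multiples of that step, so these depths are uncertain. Levels are not scaled by transcript length, so genes are not ranked against each other. Because RNA was taken from whole cultures, fewer responding cells and less RNA per cell cannot be told apart.

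The targeted genes were looked at first. Smad2 had normalized counts of 1335, 1132 and 1045 in control + vehicle, 970.0, 1062, 984 and 912 in control + A83-01, 924, 863, 892 and 821 in Smad2/3 cKO + vehicle, and 813, 1211, 854 and 804 in Smad2/3 cKO + A83-01. The 4 Smad2/3 cKO + vehicle libraries lay below the 3 control + vehicle libraries (limma log2 fold change −0.41, SE 0.137, adjusted p = 0.0656), a difference that did not pass the thresholds given below. The library labelled Smad2/3 cKO + A83-01 replicate 2 had a Smad2 level within the control + vehicle range. Control + A83-01 replicate 4, at 912, lay in turn within the Smad2/3 cKO + vehicle range of 821 to 924. Between the genotypes under A83-01 the Smad2 difference was small (limma log2 fold change −0.11, SE 0.166, adjusted p = 0.883). The Smad2 level thus does not settle the genotype of a single library, and no label is shown to be wrong. Under A83-01 every control library was above Smad2/3 cKO replicates 1, 3 and 4 and below the library labelled replicate 2. Smad3 had normalized counts of 1532, 1741 and 1599 in control + vehicle, 669, 1556, 2003 and 1265 in control + A83-01, 1169.6, 1640.1, 1516 and 1977 in Smad2/3 cKO + vehicle, and 1659, 797, 1689 and 1648 in Smad2/3 cKO + A83-01. It was lowest in control + A83-01 replicate 1 and in the library labelled Smad2/3 cKO + A83-01 replicate 2, and the 2 genotypes overlapped. Counts cover the whole gene and do not separate the floxed exons. Across the whole profile the library labelled Smad2/3 cKO + A83-01 replicate 2 was closest to Smad2/3 cKO + vehicle replicate 1 (Pearson r = 0.960 over log2 values). Control + A83-01 replicates 2 and 3 were also closest to Smad2/3 cKO libraries (r = 0.941 and 0.963), so this nearness did not tell the genotypes apart. For group comparisons that include the library labelled Smad2/3 cKO + A83-01 replicate 2, the member median is also given without that library. The interaction is given with that library, and its count of members stayed at 0 without it.

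The labelled tissue was checked on its markers. Epcam, an epithelial adhesion molecule, lay between 19889 and 28844 in all libraries, but it was the steadiest of the 8 epithelial markers. Their summed level was 223388, 175641 and 200512 normalized counts in control + vehicle, 191378, 122460, 150304 and 184629 in control + A83-01, 100199, 96262, 155039 and 104219 in Smad2/3 cKO + vehicle, and 94160, 134095, 135547 and 123939 in Smad2/3 cKO + A83-01. Every Smad2/3 cKO library was thus below every control + vehicle library, with none of the 8 markers at 0. The largest count in the sum came from Krt18, Krt8 or Epcam. One library stood apart in most leukocyte markers: Smad2/3 cKO + vehicle replicate 2 had a Tyrobp level of 128 where the other 14 libraries were at 0, a Lyz2 level of 3372, a Cd74 level of 4237 and an Adgre1 level of 351. These were picked from the 11 markers in the file. Without Cd68 the 11 summed to 9575 there and to at most 1574 elsewhere (control + vehicle replicate 1). Cd68 did not follow, since it was below Cd74 there and reached 8115 in control + A83-01 replicate 4. The mean level of the 41 genes in Smad2/3 cKO + vehicle replicate 2, 7.65 on the log2 scale, lay within the range of its group.

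The main feature of the 41 genes was a split between libraries that the 4 groups do not account for. The member mean, the average of log2(normalized count + 1) over the 41 genes, was 8.32, 8.30 and 7.92 in control + vehicle. It was 9.30, 9.41, 7.63 and 7.54 in control + A83-01, where replicates 1 and 2 stood far above replicates 3 and 4. In Smad2/3 cKO + vehicle it was 7.98, 7.65, 7.74 and 7.26, and in Smad2/3 cKO + A83-01 it was 7.22, 9.50, 7.40 and 7.10. Of the 8 A83-01 libraries, 3 (control + A83-01 replicates 1 and 2, and the library labelled Smad2/3 cKO + A83-01 replicate 2) held the highest levels, and the other 5 lay below every control + vehicle library. The spread within groups followed from this, with SDs of 0.228 in control + vehicle (n = 3), 1.02 in control + A83-01 (n = 4), 0.298 in Smad2/3 cKO + vehicle (n = 4) and 1.14 in Smad2/3 cKO + A83-01 (n = 4). The plot of member means by group shows each of these values.

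**Figure D1:**
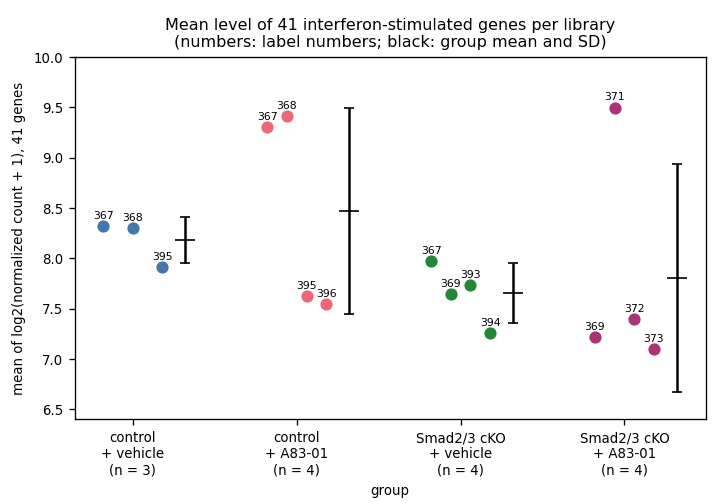
Mean of log2(normalized count + 1) over the 41 interferon-stimulated genes (vertical axis) for each library by group; numbers beside the points are label numbers, and black marks give the group mean and SD. The libraries at 9.30, 9.41 and 9.50 are all A83-01 libraries, and the other A83-01 libraries lie between 7.10 and 7.63.

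The 3 libraries were singled out after their values were seen, so what follows describes them without a test. They were the top 3 of the 15 for 23 of the 41 members (56.1%), against 63 of 13066 genes (0.482%) with a mean of at least 10. The highest value lay in one of them for 36 members (87.8%) against 24.0% of genes. The exceptions were Irf1, Ifit2, Mx1, Gbp7 and Dtx3l. Members more than 2-fold above their own median over the libraries numbered 27 and 28 in control + A83-01 replicates 1 and 2 and 28 in the library labelled Smad2/3 cKO + A83-01 replicate 2, where 4.63%, 3.98% and 4.55% of all genes were that high. No other library had more than 9 such members. Estimated depth in the 3 libraries was 19.4, 20.3 and 18.4 M reads, at the lower end of the range, and the mitochondrial share was 0.419%, 1.39% and 0.439%, which span nearly the whole range of 0.419% to 1.60%. Leukocyte markers summed to 5389, 3486 and 4097 normalized counts in them, within the range of 1637 to 12833. Cd68 gave the largest count in that sum in each. Of the 11 markers, 3, 3 and 4 were at 0, with Tyrobp at 0 in all 3.

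**Figure D2:**
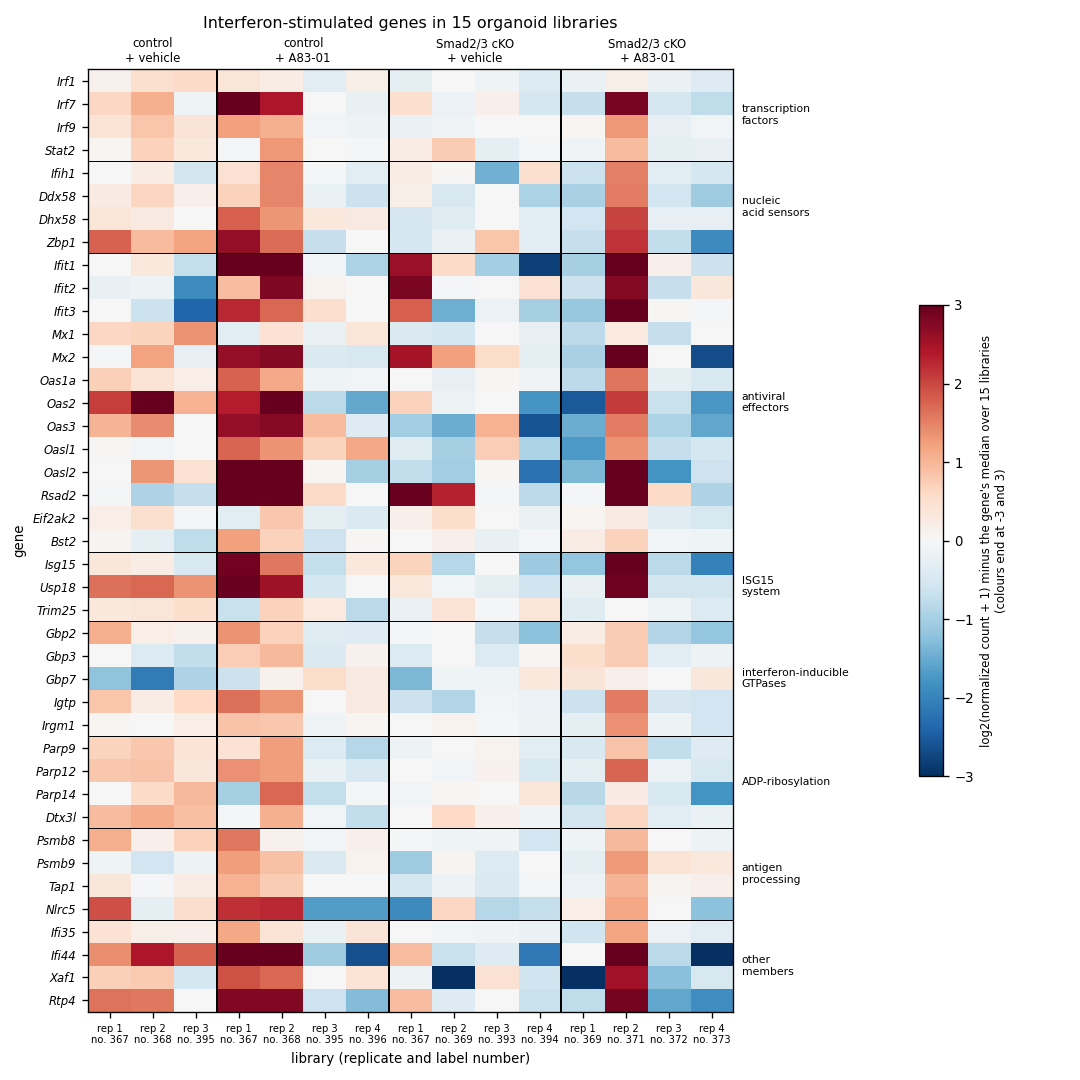
Heat map of the 41 genes (rows, grouped by role) in 15 libraries (columns, by group, replicate and label number). Colour gives log2(normalized count + 1) minus the median of that gene over the libraries. Most rows are darkest red in control + A83-01 replicates 1 and 2 and in the library labelled Smad2/3 cKO + A83-01 replicate 2, which hold the highest value of 36 of the 41 genes.

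Among the transcription factors, Irf7, which amplifies interferon production and response, carried the split most plainly. It had normalized counts of 565, 771 and 336 in control + vehicle, 3077, 1991, 368.8 and 316 in control + A83-01, 527, 329, 408 and 255 in Smad2/3 cKO + vehicle, and 229, 2650.4, 260.3 and 217 in Smad2/3 cKO + A83-01. The 3 high libraries were at 1991 or more, and no other library was above 771. Irf9, the DNA-binding subunit of ISGF3, had normalized counts of 861, 1148 and 851 in control + vehicle, 1535, 1356, 610.3 and 580.4 in control + A83-01, 563, 606, 649 and 647 in Smad2/3 cKO + vehicle, and 672, 1610.2, 551 and 609 in Smad2/3 cKO + A83-01. Its split was shallower, with a highest value 2.92 times the lowest (ranges are ratios of normalized count + 1, which lowers those of scarce genes). Stat2, the ISGF3 subunit that carries the transactivation domain, had normalized counts of 959.5, 1495 and 1150.2 in control + vehicle, 896, 2251, 918 and 883 in control + A83-01, 1064, 1561, 759 and 901 in Smad2/3 cKO + vehicle, and 848, 1779, 750.5 and 769.7 in Smad2/3 cKO + A83-01. Here control + A83-01 replicate 1, at 896, was not high, and Smad2/3 cKO + vehicle replicate 2 was. Irf1, a factor induced strongly by interferon gamma, varied by a factor of only 1.96 over the libraries and was highest in control + vehicle replicate 3.

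In the ISG15 system, Isg15, the ubiquitin-like modifier itself, had normalized counts of 176, 162 and 101 in control + vehicle, 1047, 416, 85.1 and 174 in control + A83-01, 220.5, 76.8, 139 and 65 in Smad2/3 cKO + vehicle, and 61.6, 1257, 79.4 and 33.3 in Smad2/3 cKO + A83-01. The range of 36.7-fold ran from Smad2/3 cKO + A83-01 replicate 4 to the library labelled Smad2/3 cKO + A83-01 replicate 2 of the same group. Usp18, which removes ISG15 from proteins and dampens signalling at IFNAR2, had normalized counts of 876, 919 and 716 in control + vehicle, 2210.2, 1633, 194 and 280.0 in control + A83-01, 352, 265, 227 and 185 in Smad2/3 cKO + vehicle, and 239, 2115, 191 and 190.4 in Smad2/3 cKO + A83-01. All 3 control + vehicle libraries were at 716 or more, whereas the 9 libraries outside control + vehicle and the 3 high libraries were between 185 and 352. Trim25, a ubiquitin ligase that acts on RIG-I, did not show the split and lay between 676 and 1909.

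Ranges among the antiviral effectors ran from 2.44-fold in Eif2ak2, the kinase PKR, to 123-fold in Ifit1. Rsad2, which encodes viperin, had normalized counts of 43.5, 22.8 and 26.9 in control + vehicle, 629.7, 498, 66.8 and 44.3 in control + A83-01, 351, 224, 42.2 and 25.2 in Smad2/3 cKO + vehicle, and 42.9, 476, 66.8 and 22.7 in Smad2/3 cKO + A83-01. Besides the 3 high libraries, Smad2/3 cKO + vehicle replicates 1 and 2 were high. Ifit1, which binds viral RNA lacking a host cap, had normalized counts of 48.5, 60.5 and 29.2 in control + vehicle, 627, 557, 45.7 and 24.8 in control + A83-01, 299, 72.6, 23.4 and 6.12 in Smad2/3 cKO + vehicle, and 23.7, 872, 54.3 and 30.5 in Smad2/3 cKO + A83-01. Ifit2, another member of that family, had normalized counts of 22.4, 23.4 and 6.33 in control + vehicle, 50.1, 188, 28.2 and 26 in control + A83-01, 189.8, 24.8, 26.1 and 36.5 in Smad2/3 cKO + vehicle, and 16.2, 183, 15.9 and 33.5 in Smad2/3 cKO + A83-01. Ifit3, of the same family, had normalized counts of 418, 265 and 79.7 in control + vehicle, 1989, 1388, 588 and 417 in control + A83-01, 1441, 150.2, 368.998 and 208 in Smad2/3 cKO + vehicle, and 191, 3343, 428 and 404 in Smad2/3 cKO + A83-01. Smad2/3 cKO + vehicle replicate 1 stood with the high libraries for these 3 IFIT genes, although its member mean was 7.98. Reads of Ifit3 and Ifit1 may be shared with near-identical neighbours, so their levels are uncertain to that extent.

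The OAS family senses double-stranded RNA, and its active members make the 2-5A that switches on RNase L. Oas2 had normalized counts of 260.5, 590.5 and 126 in control + vehicle, 315, 713, 34.6 and 20.3 in control + A83-01, 98.7, 54.5, 61.1 and 17.3 in Smad2/3 cKO + vehicle, and 9.88, 265, 37.8 and 17.6 in Smad2/3 cKO + A83-01. The 3 control + vehicle libraries were at 126 or more, whereas no library outside them and the 3 high libraries was above 98.7. Oas3 had normalized counts of 112, 149 and 55.2 in control + vehicle, 345, 374, 107 and 42 in control + A83-01, 26.4, 19.1, 115 and 8.4 in Smad2/3 cKO + vehicle, and 19, 161, 28.3 and 18 in Smad2/3 cKO + A83-01. Oasl2, an OAS-like member of the family, had normalized counts of 94.2, 239 and 130.3 in control + vehicle, 1158, 975, 97.9 and 46.8 in control + A83-01, 55.6, 45, 97 and 19.3 in Smad2/3 cKO + vehicle, and 36.7, 858, 26.4 and 61.1 in Smad2/3 cKO + A83-01. Both were highest in control + A83-01 replicates 1 and 2. Mx2, a dynamin-like GTPase and the member with the lowest mean, 34.6, had normalized counts of 11.5, 28.5 and 9.81 in control + vehicle, 78.6, 85.1, 8.55 and 8.25 in control + A83-01, 71.8, 28.9, 17.8 and 9.55 in Smad2/3 cKO + vehicle, and 5.53, 143, 11.8 and 1.04 in Smad2/3 cKO + A83-01. The lowest Mx2 value rests on about 1 read and is below the 3 counts taken as a floor.

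Other members ran with the split or against it. Ifi44, an interferon-induced protein of uncertain role, had normalized counts of 126, 257 and 163 in control + vehicle, 403, 486, 21.9 and 6.75 in control + A83-01, 89.6, 29, 35.9 and 9.8 in Smad2/3 cKO + vehicle, and 47, 564, 26.6 and 4.56 in Smad2/3 cKO + A83-01. Its control + vehicle libraries were high too, and its range of 102-fold exceeded that of every effector except Ifit1. Psmb9, an immunoproteasome subunit that shapes peptides for MHC class I, had normalized counts of 70.3, 51.4 and 69 in control + vehicle, 184, 142, 57.1 and 82.3 in control + A83-01, 36, 81.7, 58 and 77 in Smad2/3 cKO + vehicle, and 64.2, 188, 102 and 96.8 in Smad2/3 cKO + A83-01. Parp14, a mono-ADP-ribosyltransferase, had normalized counts of 221, 330.3 and 435 in control + vehicle, 109.8, 731, 135 and 216 in control + A83-01, 207, 231, 223 and 284 in Smad2/3 cKO + vehicle, and 124, 261, 158 and 63.2 in Smad2/3 cKO + A83-01. It was at 110 in control + A83-01 replicate 1 and at 731 in replicate 2, so only one of that pair was high. Gbp7, a guanylate-binding GTPase, had normalized counts of 135, 72.6 and 163 in control + vehicle, 201, 345, 458 and 379 in control + A83-01, 122, 284, 287 and 393.4 in Smad2/3 cKO + vehicle, and 413, 347, 313 and 399 in Smad2/3 cKO + A83-01. It was lowest in control + vehicle replicate 2 and highest in control + A83-01 replicate 3, not in the 3 high libraries.

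Likeness among members was measured as Pearson's r between a gene and the mean of the other 40 members over the 15 libraries, after group means were removed. The median r was 0.82, 15 members reached 0.9 and 37 reached 0.6. Parp12 (r = 0.990), Irf7 (0.983), Usp18 (0.974) and Rtp4 (0.971), a chaperone of G-protein-coupled receptors, were closest to the rest. Parp14 (0.446), Mx1 (0.260), Trim25 (0.220) and Gbp7 (−0.446) were the 4 below 0.5. These correlations share libraries and depth and rest largely on the 3 high libraries. Over the other 12 libraries the median r was 0.31 and 12 members reached 0.6, among them Irf7 (0.894), Parp12 (0.880), Ddx58 (0.865), which encodes RIG-I, and Oas2 (0.835). Other members were below 0 there, among them Gbp7 (−0.810), Psmb9 (−0.587), Tap1 (−0.581), Mx1 (−0.550) and Irf9 (−0.130).

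Outside the 41, the genes most like the member mean by the same measure were Oas1g (r = 0.985), Calb1 (0.959), Ifi47 (0.951), Lgals9 (0.950) and Nmi (0.947). Only 20 of 13012 other genes (0.154%) exceeded 0.9, and the median was −0.02. Oas1g is a near copy of Oas1a, and reads may be split between them. Calb1, the calcium-binding protein calbindin-D28k, had normalized counts of 185, 141 and 47.8 in control + vehicle, 88.3, 181, 2.99 and 0 in control + A83-01, 294, 64.7, 23.2 and 13.6 in Smad2/3 cKO + vehicle, and 0, 364, 1.31 and 1.68 in Smad2/3 cKO + A83-01. Lgals9, the lectin galectin 9, had normalized counts of 847, 1154 and 589 in control + vehicle, 4055, 2672, 484 and 464 in control + A83-01, 478, 652, 822 and 303 in Smad2/3 cKO + vehicle, and 393.9, 2954, 593 and 387 in Smad2/3 cKO + A83-01. Lgals9 repeated the 3 high libraries, with at least 2672 there and at most 1154 elsewhere. Calb1 followed the member mean within groups and not between them, since its level in control + A83-01 replicate 1 was below that of 2 control + vehicle libraries.

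The sequence before the start site was searched for ISRE and GAS letters. RefSeq promoter windows on GRCm38.p6, from 250 bases before to 50 after the start, were available for 31 of the 41 members, while the organoid reads were aligned to GRCm39. The ISRE was searched on both strands as TTTC, any 2 bases and TTTC again, and was found in 16 of the 31 windows (51.6%), against 3.99% of 27025 genes with a window. The GAS letters TTCNNNGAA, which read the same on both strands, were found in 9 of 31 (29.0%) against 9.55%. Of the 36 members highest in one of the 3 high libraries, 27 had a window and 15 of those an ISRE match (55.6%). Of the 5 that were highest elsewhere, Gbp7 had a match, Irf1, Ifit2 and Dtx3l had none and Mx1 had no window. With so few windows no difference between these sets is drawn. A match is a description of letters and not a site shown to be bound. The 150 bases before the start are printed for Isg15 and Ifit1, which followed the split, for Oas1a, whose matches lie next to the start, for Gbp7, the one member highest elsewhere that had a match, and for Irf7, which followed the split without a match. Capitals mark the ISRE letters on either strand. Isg15 is at chr4:156200819-156200968 (minus strand), Ifit1 at chr19:34640739-34640888 (plus), Oas1a at chr5:120907526-120907675 (minus), Gbp7 at chr3:142530186-142530335 (plus) and Irf7 at chr7:141266425-141266574 (minus), and each is written 5′ to 3′ on the strand of its gene.
Isg15: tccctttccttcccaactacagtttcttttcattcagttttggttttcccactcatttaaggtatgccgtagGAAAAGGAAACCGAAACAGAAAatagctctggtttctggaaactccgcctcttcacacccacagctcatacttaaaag
Ifit1: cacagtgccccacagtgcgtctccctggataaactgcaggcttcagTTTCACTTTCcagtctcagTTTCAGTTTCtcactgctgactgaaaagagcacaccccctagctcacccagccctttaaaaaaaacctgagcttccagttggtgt
Oas1a: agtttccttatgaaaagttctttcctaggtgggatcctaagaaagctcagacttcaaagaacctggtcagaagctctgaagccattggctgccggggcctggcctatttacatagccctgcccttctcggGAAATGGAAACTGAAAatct
Gbp7: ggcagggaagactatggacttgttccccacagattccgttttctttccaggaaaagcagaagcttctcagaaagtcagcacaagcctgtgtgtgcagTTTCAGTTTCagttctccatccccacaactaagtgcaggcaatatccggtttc
Irf7: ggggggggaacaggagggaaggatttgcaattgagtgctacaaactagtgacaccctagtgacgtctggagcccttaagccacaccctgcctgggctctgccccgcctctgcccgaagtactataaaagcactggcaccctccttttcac
In Isg15 there are 3 overlapping matches, the first 78 bases before the start. Ifit1 has 2, at 104 and 85 bases, and Oas1a has 2 overlapping ones, at 20 and 14 bases. Gbp7 has 1, at 53 bases, although its level did not follow the other members. In the whole Irf7 window there is no match, although Irf7 was among the members closest to the rest.

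A83-01 was first compared with vehicle in control organoids (limma on log2(normalized count + 1)). A gene was past the thresholds when its fold change was above 1.4 or below 0.714 and its p, adjusted by Benjamini and Hochberg's method, was below 0.01. Of the 41 members, 0 passed in either direction, against 2.27% of the 13009 genes tested (1.19% higher and 1.08% lower). At an unadjusted p under 0.05 there were 4 members higher and 2 lower, where 10.4% and 11.8% of all genes were. At an adjusted p below 0.05 with the same fold threshold, 2 members, Gbp7 and Oasl1, were higher (4.88%, against 3.64% of genes) and 0 lower (against 3.70%). The median member log2 fold change was 0.23 against −0.02 for all genes, with a range from −1.24 for Oas2 to 2.51 for Rsad2, and it was below 0 for 19 members, or 46.3%, against 51.2% of genes. Without control + A83-01 replicate 1 this median was −0.02, so its sign rested on that library, and without replicate 2 it was 0.09.

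Single genes showed how wide the error was. Rsad2 had a log2 fold change of 2.51 (SE 0.921, adjusted p = 0.144), with all 4 A83-01 libraries above the 3 vehicle libraries only narrowly in replicate 4 (44.3 against a vehicle high of 43.5). Oasl1, which in mice restrains the translation of Irf7, had the lowest adjusted p of the members. It had normalized counts of 461, 428 and 452 in control + vehicle, and 1524, 1153, 723 and 1009 in control + A83-01. The groups did not overlap (log2 fold change 1.25, SE 0.247, adjusted p = 0.0190), but the threshold was missed. Gbp7 did not overlap either (1.49, SE 0.376, adjusted p = 0.0468). In all, 4 members had every A83-01 library above every vehicle library, where 10.3% of genes did, and 1 member, Mx1, had every A83-01 library below, where 11.5% did. By role, the 13 antiviral effectors had a median log2 fold change of 0.81, and the 4 ADP-ribosylation genes had one of −0.52, with none past the thresholds in either group.

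Control libraries with the same label number could be set side by side. For replicate 1 (FF-A367 against FF-V367), 34 of 41 members were higher with A83-01 than with vehicle, with a median log2 difference of 0.81. For replicate 2, 37 were higher (median 0.94). Replicate 3 went the other way, with 13 higher and 28 lower (median −0.32). Of all genes, 48.1%, 51.9% and 50.4% were higher in the 3 pairs. The members higher in all 3 pairs were 13, namely Irf7, Ifih1, Dhx58, Ifit1, Ifit2, Ifit3, Oas3, Oasl1, Rsad2, Bst2, Gbp3, Gbp7 and Xaf1. Mx1 and Dtx3l were lower in all 3. These are 31.7% and 4.88% of the members, against 24.5% of all genes higher in all 3 pairs and 24.8% lower. With the replicate number as a block, Ifit3 passed the thresholds (log2 fold change 2.50, adjusted p = 0.00125), against 2.13 and an adjusted p of 0.0921 without the block, and it was then the only member to pass, where 1.62% of genes were higher and 1.45% lower with the block. Control + A83-01 replicate 4 has no partner in that fit and does not bear on its fold changes. Fits within the 2 series of numbers gave a median member log2 fold change of 0.95 for replicates 1 and 2, which carry the lower series, and −0.33 for vehicle replicate 3 and A83-01 replicates 3 and 4, which carry the higher one. A83-01 replicates 1 and 2 are among the 3 high libraries, so these medians restate the split. Whether the series differ in anything besides their numbers is not stated in the labels, and its part in the split was not tested.

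**Figure D3:**
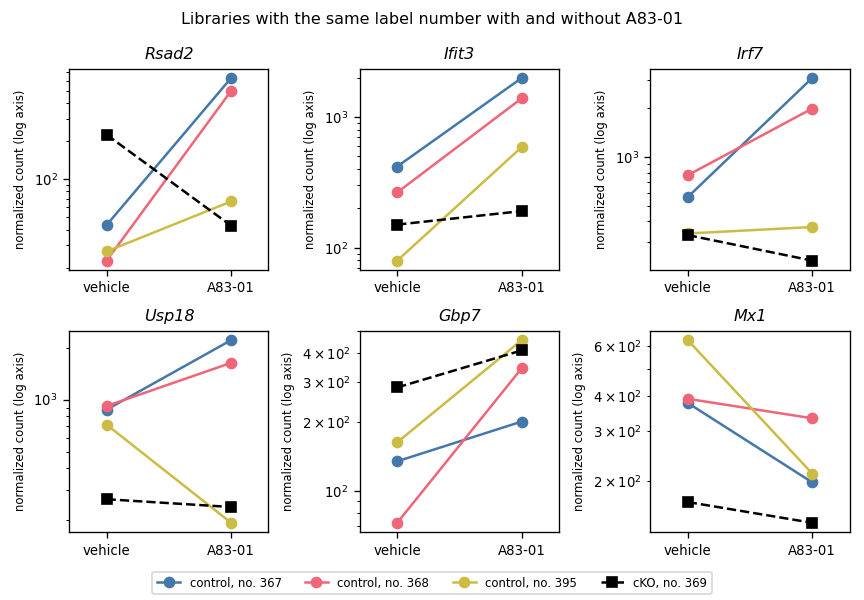
Normalized counts (log axis) of 6 genes in vehicle and A83-01 libraries that carry the same label number. Circles and full lines are control replicates 1 to 3; black squares and broken lines are the Smad2/3 cKO pair LTF-V369 and LTF-A369. Rsad2, Ifit3, Irf7 and Gbp7 were higher with A83-01 in all 3 control pairs, Mx1 was lower in all 3, and Usp18 was higher in replicates 1 and 2 and lower in replicate 3.

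The deletion was compared in vehicle-treated organoids, and here the members lay mostly on the low side. Usp18 fell by 1.73 on the log2 scale in Smad2/3 cKO + vehicle (SE 0.237, adjusted p = 0.00208), with levels of 876, 919 and 716 in control + vehicle, and 352, 265, 227 and 185 in Smad2/3 cKO + vehicle. It was the 1 member past the thresholds, or 2.44%, against 7.38% of 13149 genes (3.30% lower and 4.08% higher), so the share of calls was not above the background. The call was lost while the fold change stayed near its size with all 15 samples in 1 fit (log2 fold change −1.73, adjusted p = 0.177), within the lower series of label numbers (log2 fold change −1.55, adjusted p = 0.0184), which holds 2 libraries a group, and without control + vehicle replicate 1 (−1.69, adjusted p = 0.0134) or replicate 2 (−1.66, adjusted p = 0.0140). The replicate block lost the call too (log2 fold change −1.59, adjusted p = 0.0115), although replicate numbers do not pair the samples in this comparison. In the higher series 1 control library stood against 2, so no test is drawn from it, and the log2 fold change there was −1.80. The direction was more uniform than the calls. The log2 fold change was below 0 for 34 of 41 members (82.9%) against 49.8% of genes, and its median was −0.52 against 0.00. In 17 members (41.5%) all cKO libraries lay below all control libraries, where 16.0% of genes did so. In 1 member, Ifit2, all lay above, where 14.8% of genes did. At an unadjusted p under 0.05, 20 members were lower (48.8%, against 17.1% of genes) and 1, Gbp7, was higher (against 16.6%). All these counts rest on the same libraries and most members vary together, so the members are not independent of each other.

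At an adjusted p below 0.05, a looser threshold, 12 members were lower (29.3%), Usp18 among them, against 9.19% of genes, and 0 were higher, against 9.16%. The largest of these differences were in Ifi44 (log2 fold change −2.44, SE 0.649, adjusted p = 0.0305) and Oas2 (−2.43, SE 0.650, adjusted p = 0.0311). Mx1, an interferon-induced GTPase, had normalized counts of 378, 391 and 629.8 in control + vehicle, and 181, 169, 246 and 207 in Smad2/3 cKO + vehicle. Its groups did not overlap (log2 fold change −1.19, SE 0.248, adjusted p = 0.0119). The others were Dtx3l, Parp9 and Parp12, which are ADP-ribosylation genes, Irf1 and Irf9, the GTPase Igtp, the immunoproteasome subunit Psmb8, and Zbp1, a sensor of Z-form nucleic acid. By role, log2 fold changes were below 0 for all 4 transcription factors, all 4 sensors, all 4 ADP-ribosylation genes, all 4 antigen-processing genes, all 3 genes of the ISG15 system and all 4 other members. They were mixed among the antiviral effectors, with 8 of 13 below 0 (median −0.09), and among the interferon-inducible GTPases, with 3 of 5 below 0 (median −0.11).

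Epithelial markers lay low in the same comparison. Of the 8, 7 had a log2 fold change below 0, and their median was −0.61. Cldn4, a tight junction protein, was past the thresholds (log2 fold change −2.55, SE 0.423, adjusted p = 0.00455), or 12.5% of the markers against 7.38% of all genes. Krt19 (−1.85, SE 0.388, adjusted p = 0.0118) and Krt8 (−1.50, SE 0.317, adjusted p = 0.0124), keratins of simple epithelia, missed the threshold without overlap between groups, and Epcam was at 0.05 (SE 0.161). The part of this shift in the levels of the 41 genes was not tested.

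The 7 members above 0 were Rsad2, Ifit2, Gbp7, Ifit3, Mx2, Bst2 and Gbp3, and 0 of them passed the thresholds. Gbp7 had a log2 fold change of 1.09 (SE 0.431, adjusted p = 0.110), Bst2, the membrane tether tetherin, one of 0.29 (SE 0.194) and Gbp3 one of 0.19 (SE 0.233). The others had wider errors. Rsad2 had a log2 fold change of 1.65 (SE 0.865, adjusted p = 0.216) and Ifit2 one of 1.55 (SE 0.792, adjusted p = 0.204). For Ifit2 replicate 1 alone, at 190, was far above the controls, while the other 3 cKO libraries were between 24.8 and 36.5 against a control high of 23.4. The median over members stayed below 0 without any one library, from −0.62 to −0.47. Without Smad2/3 cKO + vehicle replicate 2, the library with the leukocyte markers, it was −0.47 and Usp18 still passed (log2 fold change −1.76, adjusted p = 0.00518). Within the lower number series (replicates 1 and 2 of each group) the member median was −0.65, and within the higher one (control replicate 3 and cKO replicates 3 and 4) it was −0.39. This comparison and that of A83-01 in controls share the same 3 control + vehicle libraries.

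**Figure D4:**
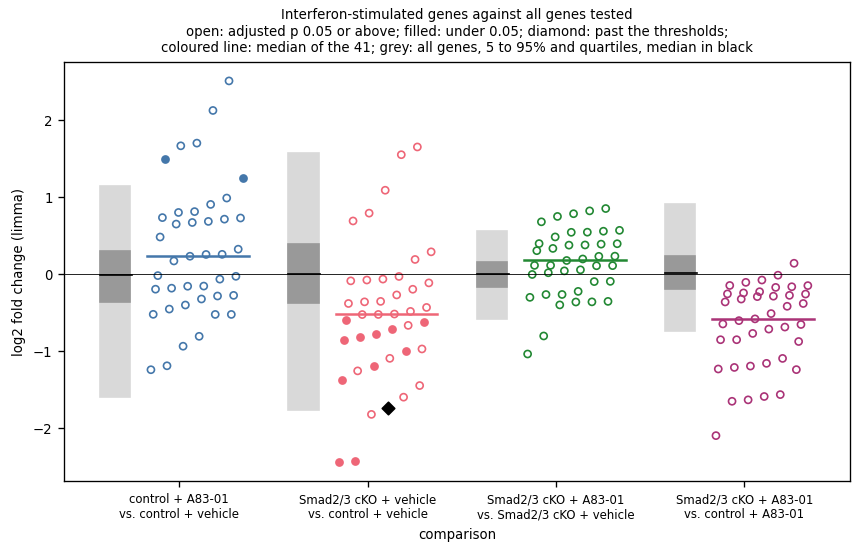
Log2 fold changes (vertical axis) of the 41 genes in 4 comparisons. Open circles have an adjusted p of 0.05 or above, filled circles one below 0.05, and the diamond, Usp18 at −1.73, passed the thresholds. Coloured lines are member medians (0.23, −0.52, 0.18 and −0.58), and grey bars give the 5 to 95% range, quartiles and median of all genes tested.

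A83-01 in Smad2/3 cKO organoids left 0 members past the thresholds, as it did 0 of 12998 genes (0%). With this limma fit, 0 members had an unadjusted p under 0.05, where 2.46% of genes were higher and 1.80% lower at that level, and the lowest adjusted p was 0.994. In 0 members did the groups separate, where 1.88% of genes lay above and 1.02% below without overlap, and the log2 fold change was below 0 for 13 members, or 31.7%, against 49.8% of genes. The largest member differences were Oasl2 at a log2 fold change of 0.85 (SE 0.982), Ifit1 at 0.82 (SE 1.31), Mx2 at −1.04 (SE 1.17) and Parp14 at −0.80 (SE 0.375). The SEs are as large as most of the differences. The median of 0.18 rested on the library labelled Smad2/3 cKO + A83-01 replicate 2, without which it was −0.33. Between LTF-V369 and LTF-A369, which share a label number, 31 of 41 members were lower with A83-01 and 10 higher (median log2 difference −0.38), and 49.9% of all genes were higher. Rsad2 in this pair was 224 with vehicle and 42.9 with A83-01. The vehicle library of the pair, LTF-V369, is Smad2/3 cKO + vehicle replicate 2, the library with the leukocyte markers.

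The genotypes under A83-01 differed in 0 members past the thresholds, against 3 of 12915 genes (0.0232%), all higher. At an adjusted p below 0.05 there were 0 members too, against 0.0310% of genes higher and 0% lower. All but Gbp7 of the members had a log2 fold change below 0 (97.6%, against 48.5% of genes), with a median of −0.58 against 0.01. So did 43 of the 53 other interferon-stimulated genes tested (81.1%). Epithelial markers lay low here too, with 7 of 8 below 0 (median −0.38), and their part in this shift was not tested. Oas3 (−2.10, SE 0.848, adjusted p = 0.475) and Oasl1 (−1.63, SE 0.543, adjusted p = 0.365) were the 2 members lower at an unadjusted p under 0.05, where 3.94% of genes were, and 0 members were higher at that level, where 5.57% were. Oasl2 was at −1.65 (SE 1.28) and Psmb9 at −0.01 (SE 0.442). In 0 members did the groups separate, where 3.38% of genes lay above and 2.73% below without overlap. Without the library labelled Smad2/3 cKO + A83-01 replicate 2 the median was −1.03, and without control + A83-01 replicates 1 or 2 it was −0.28 or −0.22, so its size followed whichever high libraries were kept. All Smad2/3 cKO + A83-01 libraries carry the lower number series, and against control + A83-01 replicates 1 and 2 alone, which carry it too, the median was −1.32. Those are the 2 high control libraries, with member means of 9.30 and 9.41. Keeping them alone makes a large negative median likely from the start, so nothing is drawn from it.

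Whether A83-01 acted differently in the 2 genotypes was tested as an interaction over all 15 libraries. At an adjusted p below 0.01 there were 0 members, against 0.0995% of 13066 genes with a higher and 0.452% with a lower value. At an unadjusted p under 0.05 there were 0 members too, where 14.3% of genes were, and the lowest adjusted p among members was 0.390. The median member value was −0.05. In these data the response of the 41 genes to A83-01 was not shown to differ between genotypes.

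Genes around the response were read from lists fixed by symbol. Of 10 interferon genes, 1, Ifne, was among the rows used here. Ifne encodes interferon epsilon and had normalized counts of 223, 331 and 209 in control + vehicle, 378, 352, 128 and 166 in control + A83-01, 161, 332, 224 and 178 in Smad2/3 cKO + vehicle, and 257, 129.5, 156 and 188 in Smad2/3 cKO + A83-01. It was 378 and 352 in control + A83-01 replicates 1 and 2 but 130 in the library labelled Smad2/3 cKO + A83-01 replicate 2, so it did not follow the split there. All 6 interferon receptor genes were measured. Ifngr1, a chain of the interferon gamma receptor, was the only one past the thresholds in any comparison (16.7% of the receptors for the deletion, against 7.38% of all genes). It had normalized counts of 1820.3, 2058 and 1423 in control + vehicle, 1129, 1488, 829.6 and 716 in control + A83-01, 664, 854, 968 and 765 in Smad2/3 cKO + vehicle, and 677, 563, 728 and 839 in Smad2/3 cKO + A83-01, and it fell in Smad2/3 cKO + vehicle against control + vehicle (log2 fold change -1.12, SE 0.181, adjusted p = 0.00409). Ifnar1 had normalized counts of 2423, 2406 and 2042 in control + vehicle, 1763, 1819.8, 1935 and 1744 in control + A83-01, 1993, 1907, 1877 and 1930.4 in Smad2/3 cKO + vehicle, and 1799.8, 2037, 1841 and 1750.3 in Smad2/3 cKO + A83-01, and its highest value was less than 1.4 times its lowest.

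Of the 3 genes for receptor kinases, 0 passed the thresholds in any comparison. Of 56 other interferon-stimulated genes, 54 were tested for A83-01 in controls, with 0 higher and 1 lower (1.85% called, against 2.27% of all genes), and 53 for the deletion, with 1 higher and 3 lower (7.55%, against 7.38%). The shares of calls were thus near or below the background. For the deletion their median log2 fold change was −0.31, with 33 of 53 below 0 (62.3%, against 49.8%). Ifitm1, a membrane protein that blocks viral entry, was the one lower with A83-01 in controls. It had normalized counts of 500.0, 221 and 309.8 in control + vehicle, and 59.5, 59.1, 65.3 and 40.7 in control + A83-01 (log2 fold change −2.53, SE 0.354, adjusted p = 0.00441). Its level in the 3 high libraries was 59.5, 59.1 and 163. Slfn2 was the one higher in Smad2/3 cKO + vehicle, while Trim30a, Pml and Ifi47 were lower. Slfn2, a Schlafen family member, had normalized counts of 635, 515 and 506 in control + vehicle, 2499.7, 1896, 1033 and 994 in control + A83-01, 1966, 1734, 1175 and 1202 in Smad2/3 cKO + vehicle, and 1158, 3148, 1022 and 1234 in Smad2/3 cKO + A83-01. Ifi47, an interferon-inducible GTPase, had normalized counts of 312, 349.6 and 272 in control + vehicle, 344, 289, 34.9 and 33.8 in control + A83-01, 87.1, 91.2, 98.8 and 66.4 in Smad2/3 cKO + vehicle, and 50.9, 255, 62.3 and 41.7 in Smad2/3 cKO + A83-01. For Ifi47 all 3 control + vehicle libraries and the 3 high libraries were at 255 or more, and the other 9 were at 98.8 or less. Of the sensing genes, Ikbke, which encodes the kinase IKKε, was lower in Smad2/3 cKO + vehicle, with 7 others tested and not past the thresholds (12.5% called, against 7.38% of all genes). Among markers of other cells, Laptm5 was lower with A83-01 in controls, Ptprc was higher and the epithelial marker Cldn4 lower with the deletion, and no list gene passed in the other 2 comparisons. These lists are so short that 1 call in them exceeds the background share. The part of these markers in the levels of interferon-stimulated genes was not tested.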

How the data were processed

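Total RNA of organoids was made into cDNA with SMART-Seq v4 and sequenced in pairs by the authors, who estimated counts with Salmon 1.4.0 (GRCm39) and tested them with DESeq2 1.32.0. The deposited values, named signal, are estimated counts divided by 1 size factor per sample. At most 22.6% of the values below 12 were whole multiples of the smallest step (within 0.02 reads), so whole reads were not recovered and count tests were not used. For each comparison limma 3.58.1 in R 4.3.3 (lmFit, then eBayes with trend) was run on the samples of its 2 groups, on log2(normalized count + 1), for genes averaging at least 10, and p-values were adjusted over all genes tested. The thresholds follow the study's methods. The interaction came from a fit of the 15 samples together. Adjusted p-values are from limma. The fit was tested on simulated data.

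Per-sample values are given for members past the thresholds, for Isg15, Irf7, Irf9 and Stat2, and for the 2 largest rises and falls in each comparison. Oasl1 and Mx1 were added after their values were seen. Outside the members, genes past the thresholds in the lists, the interferon and receptor genes and the 5 genes most like the member mean were named. Outside that rule, the cell markers Epcam, Krt8, Krt18, Krt19, Tyrobp, Lyz2, Cd74, Adgre1 and Cd68 were named too, as was Jak2. A gene of the lists is not reported here. The members and lists were chosen with earlier results of these data known. Per the labels the organoids of each genotype came from different mice, but no sample names its mouse. Replicate numbers, which in controls follow the label numbers, were read as pairs in the control groups only. There same-numbered samples deviated together (r of 0.354 to 0.423 at the 3 numbers). The block was still run as an alternative in every comparison and in the interaction, although outside the controls replicate numbers mostly join different label numbers. Promoter windows are from RefSeq (GRCm38.p6). Alternatives were other pseudocounts and filters, quantile normalization, eBayes without trend, sample weights, the block, the number series, all samples in 1 fit, no fold threshold, a looser adjusted p (below 0.05) and dropping each sample in turn. Fits within a number series were added after the data were seen.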

Additional observations from a re-analysis of the deposited data

Results flagged for a closer look

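Usp18, Irf7 and Stat2 each had 1 library far from the other 3 in Smad2/3 cKO + A83-01, by Dixon's 95% criterion for the gap to the nearest library over the range of the group. In all 3 genes it was the library labelled Smad2/3 cKO + A83-01 replicate 2, with normalized counts of 2110 for Usp18, 2650 for Irf7 and 1780 for Stat2. The mean of log2(normalized count + 1) over the 41 genes, 9.50, was flagged in the same library. In control + A83-01, Stat2 at 2250 in replicate 2 was far from the other 3 libraries. Over all 41 genes and the 3 groups of 4 libraries, 12 of 123 group and gene pairs met the criterion, and 8 of these were in the library labelled Smad2/3 cKO + A83-01 replicate 2. Chance flags about 1 in 20 such groups, and genes of 1 library are not independent. The cause was not tested.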

How the results depend on the processing

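The count of 1 member past the thresholds in Smad2/3 cKO + vehicle against control + vehicle was 0 with the replicate block (adjusted p of Usp18 0.0115), 0 with all 15 samples in 1 fit (0.177), 0 within the lower series of label numbers (0.0184), 2 with the number series as a covariate (Mx1 and Usp18), 12 at an adjusted p below 0.05 (29.3%, against 9.19% of genes lower), and 0 to 1 when a replicate was left out. Of all genes, 1.60% passed with the block, 9.33% in the 15-sample fit and 7.0% with the covariate. In the higher series, with 1 control library against 2, 1 of all genes and 0 members passed, and no test is drawn from that. The log2 fold change of Usp18 was −1.55 to −1.84 in the settings above and with 1 replicate left out in the control group. The replicate numbers do not pair the samples in that comparison (r of 0.0153 to 0.0774 at the 3 numbers). The count of 0 for A83-01 in control organoids was 1 with the replicate block (Ifit3, against 3.07% of genes), 2 with the number series as a covariate (Ifit3 and Oasl1, against 3.41%), 2 at an adjusted p below 0.05 (Gbp7 and Oasl1, 4.88%, against 3.64% of genes higher) and 0 without any 1 replicate. The block changed no other call. Except where a fit within a series could not be made, the other 2 comparisons and the interaction gave 0 members under every alternative run. No result reversed under a call.

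The background moved more. Genes past the thresholds numbered 38 to 955 for A83-01 in controls (295 as reported), and 49 to 312 with 1 library left out, lowest without control + vehicle replicate 2. For the deletion they numbered 1 to 2413 (970 as reported), and 280 to 992 with 1 library left out, lowest without control + vehicle replicate 1. For the genotypes under A83-01 they numbered 0 to 72 (3 as reported), and 0 to 4 with 1 library left out. The cause was not tested. With 3 or 4 libraries a group, Ifit1 and Oas2 had SEs of 1.11 and 1.17 on the log2 scale for A83-01 in controls. Only large differences could pass in genes with such SEs. Others had smaller SEs, such as 0.247 for Oasl1 in that comparison and 0.237 for Usp18 with the deletion.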

Other observations

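Jak2, a kinase of the interferon gamma receptor that is not among the 41 genes, did not repeat their split in full. Its normalized count was 4521 in control + A83-01 replicate 1, a high library, and 16503 in Smad2/3 cKO + A83-01 replicate 1, which is not one. It was chosen after its values were seen, and only those libraries are given.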
